A study of Mus musculus with 6 samples.

Results

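Simple keratins are the intermediate filament proteins of single-layered epithelia, and the genes followed here are 4 of them (Krt7, Krt8, Krt18 and Krt19) with 2 genes of the desmosome, the button-like junction to which keratin filaments are anchored (Perp and Dsp). They were taken by symbol, and all 6 were found among the 23842 genes of the count table. RNA of mouse embryonic fibroblasts (MEF), connective tissue cells grown out of embryos and kept in culture, was sequenced from C57BL/6 mice. The design set 3 libraries labelled NGLY1-/- against 3 labelled WT, all without treatment, in serum-containing high-glucose medium, to measure the effect of losing NGLY1. This is the cytosolic enzyme that strips N-linked glycans from misfolded glycoproteins. The deleted part of the gene is not given in the labels, nor is it stated that a group's libraries are separate embryos or cultures, so p-values cover the spread between these samples only, which may be technical.

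A keratin filament is built from pairs of a type I chain and a type II chain. Krt8 and Krt7 encode type II chains, Krt18 and Krt19 type I chains, and a chain without a partner is normally degraded. Krt8 and Krt18 are the first keratins of the embryo and are usually made together. Perp encodes a small membrane protein needed for desmosome assembly in stratified epithelia and is a target of p53 and p63, and Dsp encodes desmoplakin, which ties keratin filaments to the desmosomal plaque. Fibroblasts are built around vimentin instead and normally hold little keratin.

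Each knockout-labelled library held 33007239 to 37841558 counts and each wild-type library 27323577 to 37790710, so that 1 count was worth 0.0246 to 0.0366 CPM (counts per 1000000 scaled counts of the library). For Ngly1 itself the knockout-labelled libraries gave 618, 420 and 457 counts and the wild-type libraries 668, 632 and 307, with an edgeR adjusted p of 0.990. A count over the whole gene does not show a deleted part, so every direction below rests on the labels. The fibroblast genes Vim, Col1a1 and Fn1 were abundant in every library, whereas Lum and Fap, also fibroblast markers, had at most 4 counts in any library. Knockout replicate 3 and wild-type replicate 3 had the largest shares of ribosomal RNA genes in their groups (3.73% and 2.82%), and results are given without them where that mattered. In bulk RNA, fewer cells of a type and less RNA per cell cannot be told apart.

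Of the 6 genes, 4 were lower in the knockout-labelled libraries, 0 were higher and 2 did not pass a false discovery rate of 5%. Among all 15039 genes tested, 60.9% were called, 30.2% lower and 30.7% higher, so a single call is not particular to these genes. The median log2 fold change of the 6 was -3.04, against -0.04 for all tested genes. Krt7, Krt8, Perp and Dsp passed the low-count filter (0.274 CPM in 3 libraries) only through the wild-type group, so these counts and this median are descriptions and support nothing further. In the lists below, other genes with few counts in 1 group, such as Ppl, Ocln, Eomes, Grhl2 and Lcn2, passed only through the other group. The counts and medians of those lists are likewise descriptions. The libraries of the groups did not overlap for the same 4 called genes, all lower. Of all tested genes, 67.3% had groups that did not overlap, 33.5% with the knockout-labelled group lower and 33.8% with it higher.

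**Figure D1:**
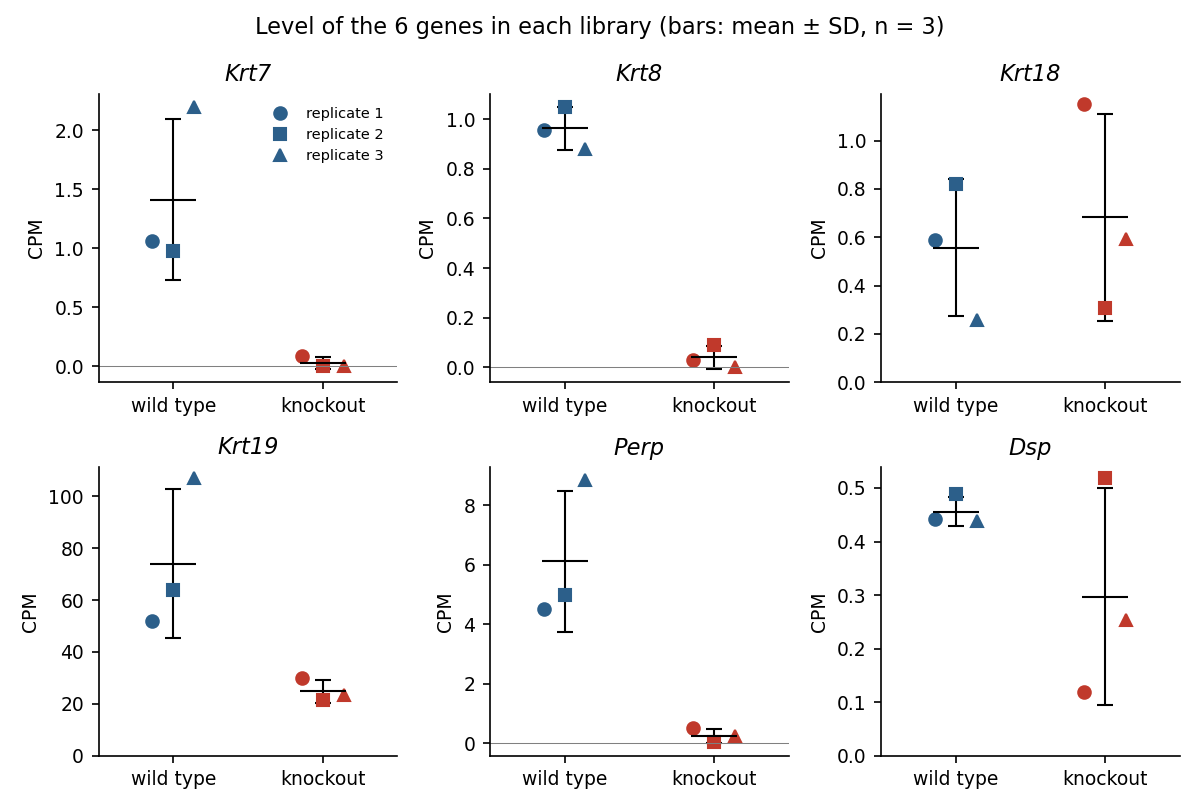
Level of each gene in CPM (y axis, linear, separate scale per panel) in the 3 wild-type and the 3 knockout-labelled libraries. Points are libraries, and bars are the mean and SD (n = 3). Krt7, Krt8, Krt19 and Perp lie lower in every knockout-labelled library, while the groups overlap for Krt18 and Dsp.

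Krt7, Krt8 and Krt18 lie within 1 stretch of chromosome 15, and Krt8 and Krt18 are transcribed away from each other from starts 24 kb apart. The 250 bases before the start of each are shown here because Krt7 and Krt8 fell and their neighbour Krt18 did not pass the test. The sequences are those of RefSeq for GRCm38.p6, the assembly that mm10 denotes, at chr15:101412153-101412402 (plus strand) for Krt7, chr15:102004343-102004592 (minus strand) for Krt8 and chr15:102027966-102028215 (plus strand) for Krt18. Capitals mark matches on either strand to GGGCGG, the GC box, or to CACCTG, an E-box of the kind read by the ZEB and SNAI repressors of epithelial genes.

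Krt7: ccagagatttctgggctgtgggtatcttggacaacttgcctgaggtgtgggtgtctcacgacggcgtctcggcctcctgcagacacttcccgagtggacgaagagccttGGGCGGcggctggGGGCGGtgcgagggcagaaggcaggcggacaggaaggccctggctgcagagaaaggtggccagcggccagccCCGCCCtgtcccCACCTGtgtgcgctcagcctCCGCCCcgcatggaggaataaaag
Krt8: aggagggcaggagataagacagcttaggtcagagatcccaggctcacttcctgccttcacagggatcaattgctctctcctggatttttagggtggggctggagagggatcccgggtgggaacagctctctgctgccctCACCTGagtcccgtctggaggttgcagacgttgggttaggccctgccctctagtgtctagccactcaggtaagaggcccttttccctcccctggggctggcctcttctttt
Krt18: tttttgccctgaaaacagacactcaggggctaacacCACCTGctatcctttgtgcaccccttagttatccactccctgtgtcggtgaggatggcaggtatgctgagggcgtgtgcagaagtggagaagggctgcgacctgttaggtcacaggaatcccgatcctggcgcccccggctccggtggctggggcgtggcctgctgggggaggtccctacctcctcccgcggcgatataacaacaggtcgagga

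Each of the 3 windows held CACCTG once, and 17.2% of the 32851 promoter windows of this length held it at least once. GGGCGG was found 4 times before Krt7 and not before Krt8 or Krt18, and 32.7% of all windows held it at least once. Neither TATAAA nor the AP-1 letters TGANTCA was found in the 3 windows (12.4% and 6.7% of all windows). No marked match overlapped another. The GC content was 66.0% for Krt7, 58.0% for Krt8 and 60.4% for Krt18. The window of Dsp on chromosome 13 held GGGCGG 4 times and CACCTG not at all. The windows of Krt19 and Perp were not analysed here.

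Both type II keratin genes fell to a few counts. Krt7 (gene ID 110310, at 101412403 to 101427806 of chromosome 15 in GRCm38) had 43, 38 and 60 counts in wild-type replicates 1, 2 and 3, and 3, 0 and 0 in knockout-labelled replicates 1, 2 and 3. All of the knockout-labelled counts were in replicate 1, and every wild-type library was above all of them. Its level was 1.41 ± 0.682 CPM in the wild type and 0.0295 ± 0.0511 CPM in the knockout-labelled group (SD, n = 3 each). The ratio of summed counts, scaled to library size, was 44.9 with an exact 95% counting interval of 15.1 to 220, and the edgeR adjusted p was 0.000263. Without knockout replicate 1 the group had 0 counts, and the ratio was 30.0 with the group set to a floor of 3 counts, with an exact 95% lower limit of 24.1 from its 0 counts. Without both libraries numbered 3 the ratio was 22.6 (7.47 to 112). Of all tested genes, 137 (0.911%) had a fitted decrease at least as large as that of Krt7.

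Krt8 (gene ID 16691, chromosome 15, 101996711 to 102004342) gave 39, 41 and 24 counts in wild-type replicates 1, 2 and 3 and 1, 3 and 0 in the knockout-labelled libraries. Its wild-type level was the steadiest of the 4 keratins, at 0.963 ± 0.0876 CPM, against 0.0403 ± 0.0467 CPM in the knockout-labelled group (SD, n = 3 each). The groups did not overlap. The ratio of summed counts was 24.8 (9.42 to 92.9), with an edgeR adjusted p of 0.000181. With knockout replicate 2 left out, 1 count remained in the group and the ratio was 67.5 (11.8 to 2690). Leaving out knockout replicate 3, which had 0 counts, gave 16.2 (6.15 to 60.6). Such intervals cover counting error only.

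Krt18, the usual type I partner of Krt8, did not pass the test. Krt18 (gene ID 16668, chromosome 15, 102028216 to 102032026) gave 24, 32 and 7 counts in wild-type replicates 1, 2 and 3 and 39, 10 and 21 in the knockout-labelled libraries. The highest library was knockout replicate 1 and the lowest wild-type replicate 3, with the other 4 interleaved. The levels were 0.556 ± 0.284 and 0.682 ± 0.430 CPM (SD, n = 3 each), a log2 fold change of 0.26 ± 0.55 (SE) with an edgeR adjusted p of 0.695. The sign of this estimate turned without knockout replicate 1 (-0.32, edgeR adjusted p = 0.679) and without wild-type replicate 3 (-0.03, edgeR adjusted p = 0.960), so no direction can be given for Krt18.

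The share of Krt8 in the pair differed between the groups without overlap. Krt8 made up 61.9%, 56.2% and 77.4% of the Krt8 and Krt18 counts in the wild-type libraries, with exact 95% binomial intervals of 48.8 to 73.9%, 44.1 to 67.8% and 58.9 to 90.4%. In the knockout-labelled libraries it made up 2.5% (0.0633 to 13.2%), 23.1% (5.04 to 53.8%) and 0 of 21 counts (up to 16.1%). The group means were 65.2% ± 11 and 8.53% ± 12.7 (SD, n = 3 each). All 3 wild-type libraries were above all 3 knockout-labelled ones. Krt8 passed the low-count filter only through the wild-type group, so this share restates its counts. It is a description and supports nothing further. Shares of counts are not corrected for transcript length, so only their difference between libraries is read here.

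**Figure D2:**
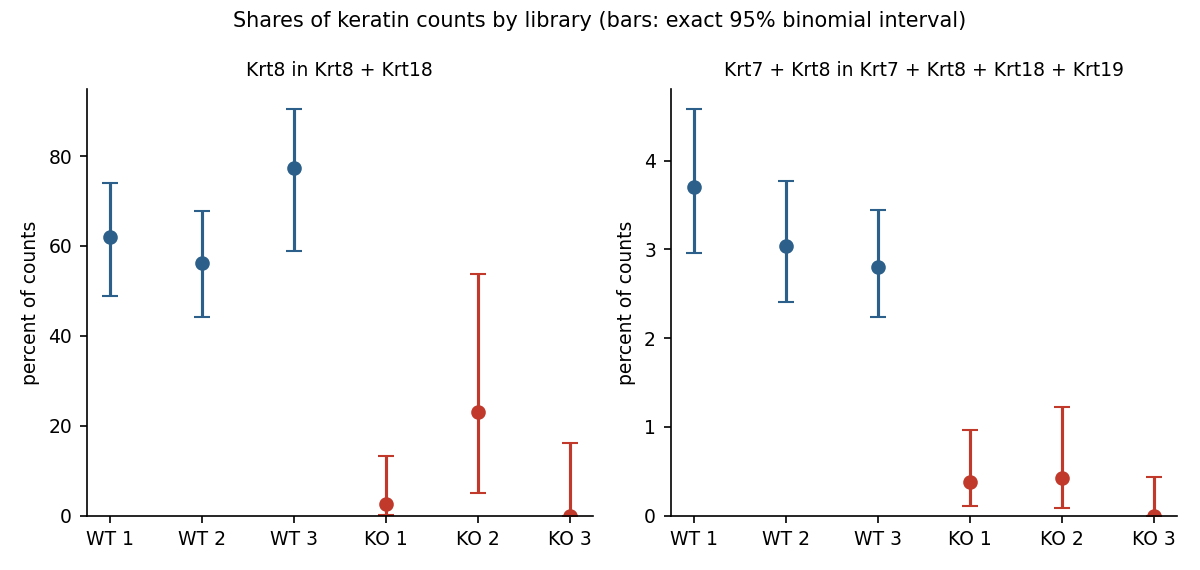
Share of keratin counts by library, in percent, with WT for wild type and KO for knockout-labelled. The left panel gives Krt8 among Krt8 and Krt18 counts, and the right panel Krt7 and Krt8 among the counts of all 4 simple keratins. Points are libraries and bars exact 95% binomial intervals. The left shares are 56.2 to 77.4% in the wild type and at most 23.1% in the knockout-labelled libraries.

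Krt19, which encodes the smallest type I keratin, fell too, and was the most abundant of the 6 per transcript length. It (gene ID 16669, chromosome 11, 100140810 to 100145926) gave 2108, 2489 and 2912 counts in wild-type replicates 1, 2 and 3 and 1010, 701 and 829 in the knockout-labelled libraries. In CPM these were 51.8, 63.9 and 107 against 29.8, 21.4 and 23.4, so that wild-type replicate 3 stood well above the other two of its group. The levels of 74.1 ± 28.7 and 24.8 ± 4.4 CPM (SD, n = 3 each) did not overlap. Krt19 was 2.98-fold lower in the knockout-labelled group, with a log2 fold change of -1.57 ± 0.26 (SE) and an edgeR adjusted p of 0.000838. Leaving out wild-type replicate 3 gave -1.21 (edgeR adjusted p = 1.23e-06). In 1326 tested genes (8.82%) the decrease was at least as large.

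Per length of the principal transcript, Krt19 stood at 47.0 ± 18.2 RPKM (reads scaled to library size and transcript length) in the wild type, followed by Perp at 3.13 ± 1.22, Krt8 at 0.492 ± 0.0447, Krt18 at 0.387 ± 0.198, Krt7 at 0.344 ± 0.167 and Dsp at 0.0476 ± 0.00285 (SD, n = 3 each). Krt8, Krt18 and Krt7 did not differ from each other beyond their spread. In the knockout-labelled group the order was Krt19 at 15.8 ± 2.79 RPKM, Krt18 at 0.475 ± 0.299, Perp at 0.134 ± 0.121, Dsp at 0.0309 ± 0.0212, Krt8 at 0.0206 ± 0.0238 and Krt7 at 0.00720 ± 0.0125 (SD, n = 3 each). Only Krt19 stood apart from its neighbour in that order by more than the spread, and the values of Dsp, Krt8 and Krt7 could not be ordered. Krt7 and Krt8 together made up 3.18% ± 0.469 of the counts of the 4 keratins in the wild type and 0.267% ± 0.232 in the knockout-labelled group (SD, n = 3 each). This share is likewise a description, as both genes passed the low-count filter only through the wild-type group. Per length, too, the type I genes Krt18 and Krt19 together stood far above the type II genes Krt7 and Krt8 in both groups, nearly all through Krt19. This covers these 4 genes only, as the type II gene Krt80 was also abundant. All type II keratin genes summed to 21.9 to 23.6 CPM in the knockout-labelled libraries, and all type I genes to 23.4 to 32.2 CPM. In the wild type these sums were 28.0 to 62.6 and 54.8 to 109 CPM.

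Perp (gene ID 64058, chromosome 10, 18845071 to 18857073) also fell. It gave 184, 194 and 242 counts in wild-type replicates 1, 2 and 3 and 17, 1 and 9 in the knockout-labelled libraries. The highest knockout-labelled library, at 0.501 CPM, was far below the lowest wild-type library, at 4.52 CPM. From 6.12 ± 2.38 CPM the level fell to 0.262 ± 0.236 CPM (SD, n = 3 each), a fold change of 22.8 with a log2 value of -4.51 ± 0.58 (SE) and an edgeR adjusted p of 0.000156. The size depended on knockout replicate 1, which held 17 of the 27 counts of its group: the ratio of summed counts was 21.9 (14.9 to 33.6) with it and 39.6 (21.4 to 83.0) without it.

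Dsp (gene ID 109620, chromosome 13, 38151294 to 38198577) gave 18, 19 and 12 counts in wild-type replicates 1, 2 and 3 and 4, 17 and 9 in the knockout-labelled libraries. Knockout replicate 2, at 0.518 CPM, was the highest of all 6 libraries, and the other 2 of its group were the lowest. The levels of 0.456 ± 0.0274 and 0.297 ± 0.203 CPM (SD, n = 3 each) overlapped. The log2 fold change of -0.63 ± 0.52 (SE) had an edgeR adjusted p of 0.317. A difference in desmoplakin RNA was not detectable beyond the spread between these libraries. On chromosome 13, 52.0% of the 625 tested genes were called higher and 13.9% lower, with a median log2 fold change of 0.43. The median was 0.13 on chromosome 15, -0.02 on chromosome 11 and -0.11 on chromosome 10, where the other 5 genes lie.

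**Figure D3:**
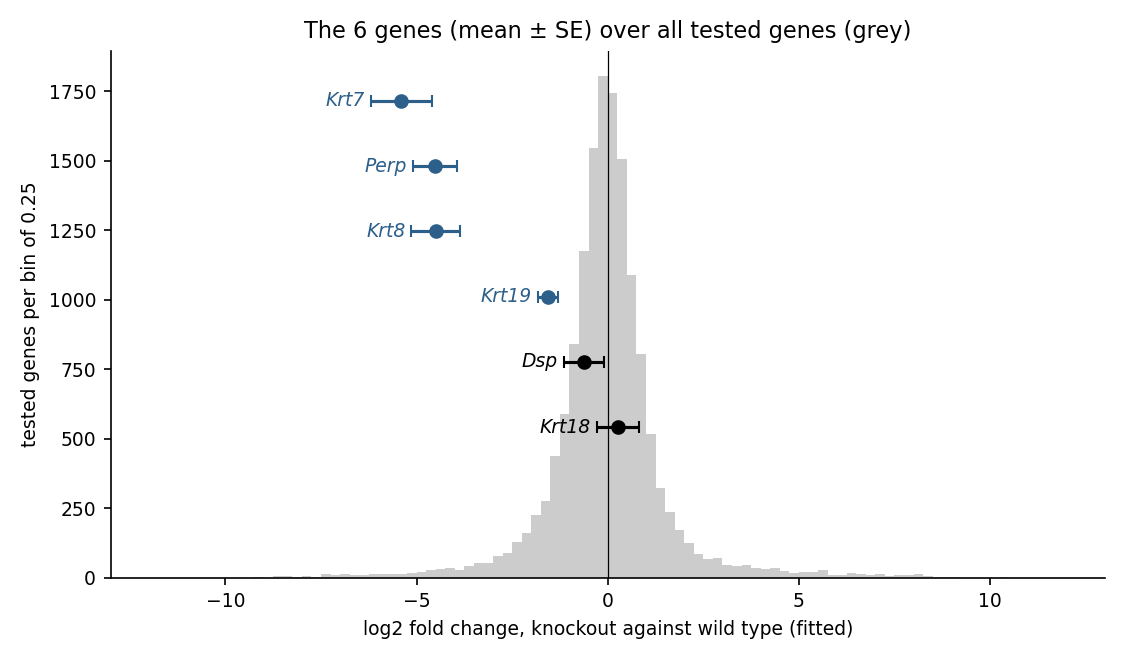
Fitted log2 fold change, knockout against wild type (x axis), of the 6 genes as points with SE, over the distribution of all 15039 tested genes in grey (y axis, genes per bin of 0.25). The height of the points has no meaning. Krt7, Perp and Krt8 lie at -5.40, -4.51 and -4.50, in the lower tail of all genes, and Krt18 and Dsp lie within its centre.

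Wild-type replicate 3 did not rank alike for all of the genes. It was the highest wild-type library for Krt7, Krt19 and Perp and the lowest for Krt8, Krt18 and Dsp. With both libraries numbered 3 left out, the same 4 genes were lower at the 5% level, with log2 fold changes of -4.39 for Krt7, -3.98 for Krt8, -1.16 for Krt19 and -4.11 for Perp. Over the 6 libraries, the profiles closest to each other among the 6 genes were those of Krt7 and Perp, with a root mean square difference of centred log2 CPM of 0.59. Krt8 and Krt18 differed by 2.05 on that scale and Krt18 and Perp, the furthest pair, by 2.53. A prior count of 2 was added before taking logs, which shrinks the changes of genes with few counts. Krt8 and Perp thus differed by 1.29, although their fitted log2 fold changes were -4.50 and -4.51. The order of the pairs therefore also reflects the number of counts of each gene.

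Most other keratins were at or near 0. Of 16 further keratin genes found in the table, 13 had too few counts to pass the filter, and Krt10, Krt13 and Krt80 were tested, of which 2 were lower and 0 higher. Krt13, a type I keratin gene that lies 23 kb from Krt19, had 23, 14 and 17 counts in the wild type and 4, 2 and 5 in the knockout-labelled libraries, and was 4.64-fold lower (edgeR adjusted p = 0.00377). Krt80, a type II keratin gene 64 kb from Krt7, was 1.69-fold lower at 22.4 ± 0.924 against 38.1 ± 18.6 CPM (SD, n = 3 each; edgeR adjusted p = 0.0462). Leaving out knockout replicate 1, 2 or 3 ended that call (edgeR adjusted p = 0.114, 0.0993 and 0.108) as did leaving out both libraries numbered 3 (0.0638), limma-voom (0.0807) and no low-count filter (0.211). Krt10 had a log2 fold change of -0.20 (edgeR adjusted p = 0.597). Krt15, Krt16 and Krt17, keratins of stratified epithelia that were not tested, had at most 6 counts in a library.

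Other intermediate filament genes were higher for 1 of 8 tested and lower for 4, and their median log2 fold change was -0.29. Vim, the filament protein of fibroblasts, fell 2.57-fold from 1741 ± 231 to 677 ± 42.4 CPM (SD, n = 3 each; edgeR adjusted p = 1.01e-05). The nuclear lamin genes Lmna and Lmnb2 were 1.86-fold and 1.37-fold lower, and Prph, peripherin, 4.16-fold lower. Des, the filament protein of muscle, was 7.47-fold higher (edgeR adjusted p = 0.000536) but stood at only 3.56 ± 0.281 CPM (SD, n = 3).

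The other desmosome genes were lower for 4 of 5 tested and higher for 1. The 4 were all plaque proteins that bind desmosomal cadherins and desmoplakin. Jup, plakoglobin, fell from 110 ± 27.6 to 28.1 ± 2.81 CPM, a 3.90-fold change (edgeR adjusted p = 2.33e-05). The plakophilin genes Pkp1, Pkp2 and Pkp3 were 4.19-fold, 3.53-fold and 16.1-fold lower, with 314, 383 and 274 wild-type counts of Pkp3 against 16, 17 and 25. The member that rose was Cdsn, corneodesmosin, an adhesion protein of the outer epidermis, from 1.86 ± 0.506 to 111 ± 20.3 CPM, a 59.3-fold change (edgeR adjusted p = 7.97e-08). Of 14 other desmosome genes listed, 7 were found in the count table, and the cadherin genes Dsg2 and Dsc2 were not among them. Of the desmosomal cadherins in the table, Dsg3 had 1 count in all and Dsc1 gave 5, 3 and 3 counts in knockout replicates 1, 2 and 3 and 0 in the wild type. Dsp, whose product these plaque proteins bind, did not pass the test, with knockout-labelled libraries on both sides of the wild type.

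Plakins, the protein family of desmoplakin that links filaments to junctions, were lower for 3 of 5 tested and higher for 1. Ppl, periplakin, gave 1226, 1197 and 812 counts in wild-type replicates 1, 2 and 3 and 8, 2 and 1 in the knockout-labelled libraries, a fitted change of 271-fold (edgeR adjusted p = 6.14e-08). Eppk1, epiplakin, which binds keratin filaments, fell 17.4-fold from 48.6 ± 12.8 to 2.79 ± 0.720 CPM (SD, n = 3 each). Macf1, which links actin and microtubules, was 1.65-fold lower, and Dst, dystonin, 1.60-fold higher. Plec, plectin, which ties vimentin as well as keratin filaments to adhesions, had a log2 fold change of -0.31 (edgeR adjusted p = 0.209). Evpl, envoplakin, the partner of periplakin, was not tested, with 10, 8 and 11 counts against 1, 3 and 1.

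Hemidesmosome and basal lamina genes were lower for 2 of 6 tested and higher for 1, with a median of -0.38. The tetraspanin gene Cd151 was 1.48-fold lower. Lama3, a chain of epithelial laminin, was 3.07-fold higher at under 1 CPM (edgeR adjusted p = 0.0165), a call lost without knockout replicate 2 (edgeR adjusted p = 0.0531), knockout replicate 3 (0.0533) or wild-type replicate 1 (0.0720). Itgb4, the integrin chain that reaches keratin filaments, had a log2 fold change of -1.14 (edgeR adjusted p = 0.0790), and was called lower without wild-type replicate 3 (-1.44, edgeR adjusted p = 0.00355) or knockout replicate 2 (-1.60, 0.0447).

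Adherens junction genes, whose cadherins hold cells together through actin, were lower for 6 of 11 tested and higher for 2, with a median of -0.55. Cdh1, the E-cadherin of epithelia, had 31, 25 and 19 counts in the wild type and 10, 5 and 10 in the knockout-labelled libraries, and was 2.84-fold lower (edgeR adjusted p = 0.00926; 0.0525 without knockout replicate 2). P-cadherin (Cdh3) was 2.28-fold lower at 118 ± 17.1 against 51.6 ± 7.02 CPM (SD, n = 3 each), and Cdh11, a cadherin of mesenchyme, 12.4-fold lower. The cytoplasmic partners Afdn, Ctnnd1 and Ctnnb1 were 1.83-fold, 1.46-fold and 1.56-fold lower. Cdh2, the N-cadherin of fibroblasts, was 1.52-fold higher, and Nectin2 was 2.29-fold higher. Of these 4 cadherin genes, the epithelial Cdh1 and Cdh3 and the mesenchymal Cdh11 fell, and Cdh2 rose.

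Tight junction genes, which seal epithelial sheets, were lower for 10 of 15 tested and higher for 4, with a median of -1.20. The scaffold genes Cgnl1 and Cgn were 4.80-fold and 7.63-fold lower, with Cgnl1 at 767 ± 28.0 against 160 ± 15.1 CPM (SD, n = 3 each; edgeR adjusted p = 1.28e-07). Ocln, occludin, had 14, 14 and 8 counts against 0, 1 and 0, a ratio of 34.4 (5.79 to 1396) with an edgeR adjusted p of 0.000827. Its single knockout-labelled count was in replicate 2, without which the group had 0. Among those that rose, Cxadr, a receptor-like adhesion protein, went from 101 ± 1.83 to 389 ± 25.7 CPM (edgeR adjusted p = 1.56e-07), and the claudin genes Cldn12 and Cldn1 were 2.27-fold and 9.0-fold higher. Tjp1, counted among the lower, lost its call without knockout replicate 1 (edgeR adjusted p = 0.0588) or 2 (0.0505). Cldn4, a claudin of simple epithelia, was not tested, with 14 counts over the wild type and 2 over the knockout-labelled group.

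**Figure D4:**
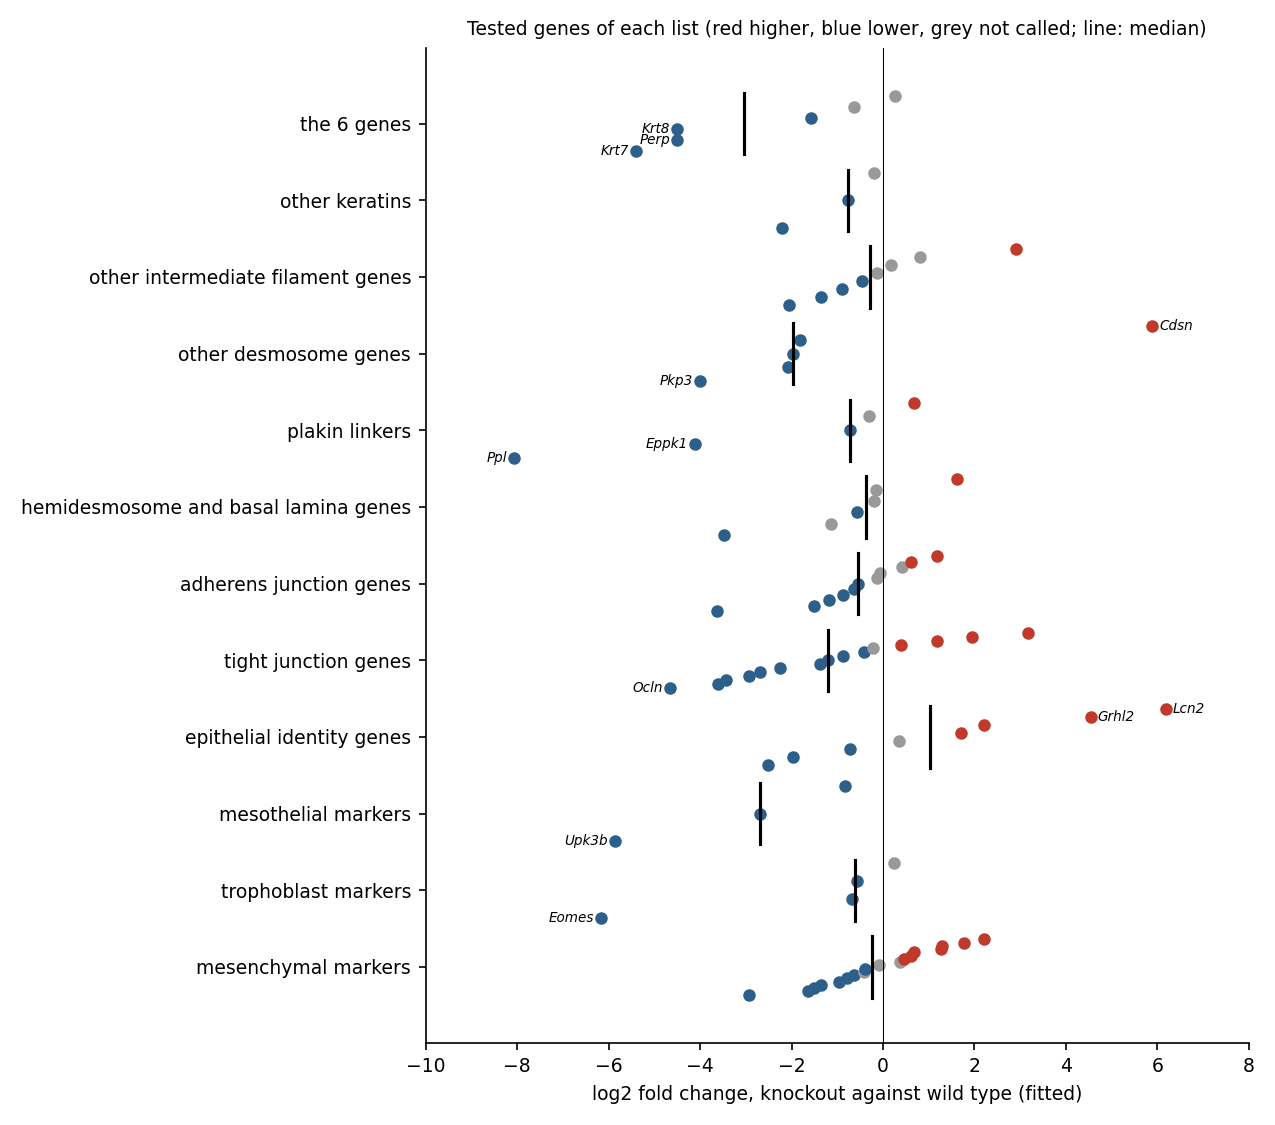
Fitted log2 fold change, knockout against wild type (x axis), of each tested gene (points) in the 6 genes and in 11 related lists (rows). Red points passed the 5% false discovery rate as higher, blue points as lower, and grey points did not pass. Black lines are the list medians, among them -1.96 for the other desmosome genes and -1.20 for the tight junction genes.

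Genes of epithelial identity did not move in 1 direction: 4 of 8 tested were higher and 3 lower, with a median of 1.02. Of the 4, Grhl1, Grhl2 and Lcn2 passed the low-count filter only through the knockout-labelled group, so this count and median are descriptions. Grhl2, a transcription factor that drives junction genes in epithelia, gave 30, 18 and 27 counts in knockout replicates 1, 2 and 3 and 2, 1 and 0 in the wild type, a ratio of 26.2 (8.62 to 130; edgeR adjusted p = 0.000172). Grhl1, its relative, and Spint1, a protease inhibitor, were 4.62-fold and 3.24-fold higher, and Lcn2, lipocalin 2, had 96 counts over the knockout-labelled group against 1 in wild-type replicate 1, a ratio of 100 (17.6 to 4009). Esrp2, an epithelial splicing regulator, was 5.71-fold lower, and Sfn, 14-3-3 sigma, 1.66-fold lower. Trp63, which encodes p63, an activator of Perp in epithelia, gave 119, 112 and 26 counts in wild-type replicates 1, 2 and 3 and 20, 26 and 13 in the knockout-labelled libraries, and was 3.90-fold lower (edgeR adjusted p = 0.00493). Epcam and Esrp1, defining genes of epithelial cells, had at most 5 and 7 counts in any library. The summed level of the list was 27.5 to 34.2 CPM in the wild-type and 28.0 to 34.0 CPM in the knockout-labelled libraries. Much of that sum was Klf5, a transcription factor gene that did not pass the main test, at 13.9 ± 5.67 and 17.5 ± 3.93 CPM (SD, n = 3 each). Klf5 was called higher without wild-type replicate 3 (log2 fold change 0.74, edgeR adjusted p = 0.000848) and without both libraries numbered 3 (0.55, 0.00359). With the replicate number as a block it was also called higher (0.38, 0.0466).

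Markers of the other cell types that carry simple keratins were measured beside them. Mesothelium, the lining of body cavities, holds Krt7, Krt8, Krt18 and Krt19. Of 9 mesothelial markers listed, 5 were found in the count table, and Wt1 and Upk1b were not among them. The 3 that were tested were lower and 0 were higher, beside 30.2% and 30.7% of all tested genes. Msln, mesothelin, was 1.77-fold lower at 376 ± 31.9 against 212 ± 24.6 CPM (SD, n = 3 each; edgeR adjusted p = 0.000141). Upk3b, a uroplakin of mesothelium, had 63, 49 and 33 counts in the wild type and 2, 0 and 0 in the knockout-labelled libraries, a ratio of 69.3 (18.8 to 577). Its 2 counts were in knockout replicate 1. Cldn15 had 20, 15 and 14 counts against 0, 7 and 0, and was 6.40-fold lower (edgeR adjusted p = 0.0242), a call lost without knockout replicate 1 (0.0914) or 3 (0.0831). Upk3b and Cldn15 passed the low-count filter only through the wild-type group. Of the markers too low to be tested, Bnc1 lay the other way, with 0 counts over the wild type against 4, 4 and 1 in knockout replicates 1, 2 and 3, and Lrrn4 had at most 2 counts in a library. The list summed to 351 to 413 CPM in the wild-type and 190 to 239 CPM in the knockout-labelled libraries, nearly all of it Msln. The part of these cells in the keratin result was not tested.

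Trophoblast, the outer layer of the early embryo, makes Krt7, Krt8 and Krt18. Of its 4 tested markers, 3 were lower and 0 higher, beside 30.2% and 30.7% of all tested genes. Eomes, 1 of the 3, passed the low-count filter only through the wild-type group. Eomes had 66, 63 and 48 counts in the wild type and 0, 2 and 0 in the knockout-labelled libraries, a ratio of 84.6 (23.1 to 704), with both counts in knockout replicate 2. Peg10 was 1.60-fold lower and Gata3 1.47-fold lower, the latter not without knockout replicate 1 (edgeR adjusted p = 0.127) or 2 (0.122). Defining genes of the lineage were at or near 0: Elf5 had 1 count in all, Tfap2c 3, Gcm1 1 and Plet1 1. The list summed to 53.7 to 70.6 CPM in the wild-type and 34.9 to 43.3 CPM in the knockout-labelled libraries, and its part in the keratin result was likewise not tested.

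The mesenchymal markers split, with 7 of 18 tested higher and 8 lower. Among the factors that repress epithelial genes, Zeb1, Zeb2 and Snai2 were 1.37-fold, 2.46-fold and 2.39-fold higher (edgeR adjusted p = 0.00156, 0.000153 and 0.000114). Twist2 was 1.59-fold higher and Twist1 2.83-fold lower, and Snai1 had a log2 fold change of -0.42 (edgeR adjusted p = 0.0552). The matrix genes Fn1 and Dcn were 3.42-fold and 4.60-fold higher. The calcium-binding protein gene S100a4 was 7.59-fold lower, Pdgfrb 1.71-fold and Thy1 3.11-fold lower, and Col1a1 had a log2 fold change of -0.08 (edgeR adjusted p = 0.557). Summed over the list, the level was 8880 to 10115 CPM in the wild-type and 11332 to 12663 CPM in the knockout-labelled libraries, and Fn1 alone went from 2092 ± 245 to 7151 ± 529 CPM (SD, n = 3 each). Prrx1, one of the 8 lower genes, lost its call without knockout replicate 2 (edgeR adjusted p = 0.0536), and Col1a2 without knockout replicate 2 or 3 or wild-type replicate 1 or 2 (0.109 to 0.152).

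Perp belongs to a family of small membrane proteins with Pmp22 and the Emp genes. Of the 5 relatives tested, 3 were higher and 2 lower. Pmp22 was 3.76-fold lower and Emp1 1.96-fold lower, Emp2 was 2.96-fold higher, and Tmem47 rose from 0.202 ± 0.0512 to 10.0 ± 1.89 CPM (SD, n = 3 each; edgeR adjusted p = 2.07e-07). Emp3 was 1.26-fold higher, a call lost without knockout replicate 1 (edgeR adjusted p = 0.0722), knockout replicate 2 (0.0505) or wild-type replicate 1 (0.0803), and with scaling by library totals (0.154). Relatives of Perp thus moved in both directions.

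Perp is a p53 target, and of 15 other p53 targets tested, 8 were higher and 2 lower, beside 30.7% and 30.2% of all tested genes. Their median log2 fold change was 0.54. The cell death genes Bbc3 and Pmaip1 were 5.97-fold and 5.59-fold higher, the stress gene Sesn2 4.15-fold, Rrm2b 2.58-fold and Bax 1.42-fold. The cell cycle inhibitor gene Cdkn1a went from 11.8 ± 1.11 to 26.7 ± 9.88 CPM (SD, n = 3 each; edgeR adjusted p = 0.00203). Ccng1 and Phlda3 were the members called lower, 2.05-fold and 1.53-fold. Of the 5 not called, Mdm2 and Zmat3 had log2 fold changes of -0.21 and -0.32 (edgeR adjusted p = 0.0945 and 0.0640). Both were called lower with scaling by library totals (0.0154 and 0.0158). Fas, with 0.54 (edgeR adjusted p = 0.0551), was called higher by the DESeq2 test (adjusted p = 0.0388). Eda2r, also counted as higher, lost its call without knockout replicate 1 (edgeR adjusted p = 0.151) or 3 (0.0645) or wild-type replicate 2 (0.0690).

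Genes around the 6 gave mixed calls. Neighbours are tested genes whose leftmost coordinate lies within 250 kb of that of the gene named, whichever strand is transcribed. The distances of Krt13 and Krt80 given above were measured in the same way. Of 10 neighbours of Krt8, 2 were higher and 1, Tns2 (1.42-fold), was lower, with Krt18 among the rest. Soat2, a sterol esterification enzyme gene 154 kb away, rose from 24, 15 and 4 counts in the wild type to 1121, 1270 and 1321 in the knockout-labelled libraries (log2 fold change 6.5, edgeR adjusted p = 8.10e-08), and Zfp740 had a log2 fold change of 0.43. Around Krt7, 1 of 7 was higher and 1 lower, the latter being Krt80. Among 5 neighbours of Krt19, Jup and Krt13 were lower and the translation factor gene Eif1 and Hap1 higher. Perp had 1 tested neighbour, Tnfaip3, with a log2 fold change of 0.25 (edgeR adjusted p = 0.412; 0.65 and 0.000128 without wild-type replicate 3). Of 5 neighbours of Dsp, 4 were higher, among them Riok1 (log2 fold change 1.29) and Bmp6 (3.17), and 1, Ssr1, was lower (-0.50). Of the 4, Cage1 (1.01, edgeR adjusted p = 0.0446) kept its call in only 1 of the 6 leave-outs of 1 library, that of knockout replicate 2 (0.0560 to 0.127 in the others). The annotation gave no gene overlapping any of the 6, but reads shared with related keratin sequences could still have been assigned to the wrong gene.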

How the data were processed

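Whole-number read counts per gene were made and deposited by the authors for 6 libraries, keyed by NCBI Gene ID, per the file headers. The submitters' processing notes name STAR 2.5.1b and mm10. Trizol extraction and a kit for stranded total RNA libraries are given per the labels' protocols. Which program, annotation release and strand option were used for counting is not given in the sources used here. Libraries were grouped by the genotype label and columns matched by title. All genes were fitted in R 4.3.3 with edgeR 4.0.16 (filterByExpr, TMM scaling, robust quasi-likelihood test with genotype as the only term, two-sided, Benjamini-Hochberg adjustment, false discovery rate 0.05), and the step was tested on simulated data. CPM values use TMM-scaled library sizes. Where a group held at most 3 counts, and for the type II keratins and Perp, ratios of summed counts are given with exact 95% intervals. Lengths are those of GENCODE M21 principal transcripts, which for Krt7 include a long untranslated part that lowers its RPKM. Coordinates come from the RefSeq GRCm38.p6 table, which held 97.3% of the tested genes.

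The members and gene lists were chosen with earlier results of these data known. Named were the 6 genes, up to 5 called genes of each list per direction by smallest p, preset defining markers, neighbours within 250 kb and the 3 closest profiles. Cdkn1a, Mdm2, Zmat3, Fas, Twist2, Snai1, Fap, Itgb4, Plec, Evpl, Krt10, Krt15, Krt16, Krt17, Dsg3, Dsc1, Gcm1 and Plet1 were added after their values were seen. Some genes counted in the lists are not reported here by name. Alternatives were DESeq2 1.42.0 size factors and test, library totals, other filters, the replicate number as a block, limma-voom (limma 3.58.1), no structural RNA genes, each library left out, and both libraries numbered 3 left out.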

Additional observations from a re-analysis of the deposited data

How the results depend on the processing

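The calls of Krt7, Krt19 and Perp as lower held in each of 15 alternatives, and those of Krt8 in each of the 14 that tested it, with log2 fold changes of -8.61 to -4.39, -1.78 to -1.16, -5.34 to -3.99 and -5.74 to -3.91. Krt18 and Dsp were called in none (-0.32 to 0.66 and -1.26 to -0.24), and Krt18 turned to -0.32 without knockout replicate 1 and to -0.03 when wild-type replicate 3 was left out. With at least 1 CPM in 3 libraries, Krt8, Krt18 and Dsp were not tested, so 3 genes were lower. Scaling by library totals moved the median of all genes by -0.12.

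Counts that moved by over 1.5 times were small. Other keratins lower went from 2 to 1 with limma-voom, no low-count filter, a minimum of 1 CPM in 3 libraries or without both libraries numbered 3, and ranged from 1 to 2 with 1 library left out. With no low-count filter, 2 other desmosome genes and 1 mesothelial marker were higher. With at least 1 CPM in 3 libraries, 0 hemidesmosome genes and 2 epithelial identity genes were higher and 4 p53 targets lower, as were 4 by library totals. Hemidesmosome genes higher ranged from 0 to 1 and other intermediate filament genes higher from 1 to 2 with 1 library left out. Without both libraries numbered 3, 1 trophoblast marker and 2 other intermediate filament genes were higher. Fewer genes tested or fewer libraries set some of these by construction, and otherwise the cause was not tested.

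With the replicate number as a block, the log2 fold changes were -5.39 for Krt7, -4.53 for Krt8, 0.25 for Krt18, -1.52 for Krt19 and -4.55 for Perp, with no call changed among the 6. The numbers were not taken to pair the libraries: deviations from the group means correlated across genes at 0.10, 0.01 and 0.21 for numbers 1, 2 and 3, and knockout replicate 1 correlated best with wild-type replicate 2 (0.15). Krt18 and Dsp had 7 to 39 and 4 to 19 counts a library, and how far depth or the spread between libraries limited their tests was not tested.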

Other observations

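Among genes of at least 5 CPM on average (10448 to 10449 compared per gene), the profile over the 6 libraries closest to that of Krt19 was that of Tfrc, the transferrin receptor gene, with a root mean square difference of centred log2 CPM of 0.07. Tfrc stood at 515 ± 187 CPM in the wild type and 164 ± 34.5 CPM in the knockout-labelled group (SD, n = 3 each). It was followed by the tropomyosin gene Tpm1 (0.12) and the kinase gene Styk1 (0.13). Closest to Krt7 and to Perp was the signalling ligand gene Wnt7b (0.29 and 0.69), at 40.3 ± 18 against 2.84 ± 1.03 CPM (SD, n = 3 each). Next for Krt7 were the water channel gene Aqp1 (0.49) and Tnxb (0.52), and for Perp Tnxb and Atg9b (0.81 each). Closest to Krt8 were Pir (0.19), the calcium channel gene Cacna1a (0.20) and Krba1 (0.23). For Krt18, at 0.41 or more, the likest were Fam84b, 1700052K11Rik and Abtb2, and for Dsp Nxpe3 (0.26), Flrt1 and Zfp862-ps (0.28 each). With 6 libraries, and 60.9% of all tested genes called, many genes share such profiles. The prior count of 2 added before taking logs also shrank the changes of members with few counts. Krt7 and Krt8 had fitted log2 fold changes of -5.40 and -4.50, against -3.82 for Wnt7b and -3.51 for Pir. Such matches thus depend on that prior.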
